A study of Mus musculus with 2 samples.

Results

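Clustered peaks, meaning peaks with a close neighbour, made up 432 of the 2977 regions in a peak list from a study of PAX7 target genes in mouse muscle stem cells. They were the peaks on chromosomes 1 to 19 whose summit, the base with the most ChIP fragments, had another summit within 10000 bp. Neighbouring summits at most 10000 bp apart were chained, which gave 204 clusters. The remaining 2526 peaks on these chromosomes had no neighbour that near and are called isolated here. The data came from chromatin immunoprecipitation with sequencing (ChIP-seq) of untreated muscle stem cells, sorted by flow cytometry from C57BL/6 mice with a knock-in of yellow fluorescent protein at Pax7 (Pax7-YFP KI). The ChIP library was made with an antibody against GFP and held 10622111 tags after filtering, and the input DNA library from the same kind of cells held 20429667. Both libraries came from cells with the knock-in, and ChIP from cells without the tag was not analysed here. With 1 library of each kind no value had a replicate and nothing was tested. The authors' deposited table gives, in GRCm38, each peak's position, its pileup (how many ChIP fragments cover the summit) and its fold enrichment relative to local input. Intervals on a fold are exact Poisson intervals of its pileup at 95%, and those on a share are Wilson intervals, and both cover counting error only.

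PAX7, with a paired box and a homeobox, is the classical nuclear marker of muscle stem cells and is needed to maintain them. It binds DNA through its paired domain and its homeodomain, and it is known to bind mostly at sites far from gene starts. Regulatory regions that lie near each other along the chromosome, as neighbouring enhancers of the same gene or as a promoter and a nearby element, can appear in a peak list as several summits in a row. A peak list gives no measure of expression, so the identity of the sorted cells could not be checked against marker levels here.

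Sequences are shown first for the strongest clustered summits that lay just upstream of a gene start, because these were the members for which sequence of the right build was at hand. RefSeq promoter windows of GRCm38.p6, running from 250 bases before to 50 bases after a start site, held 29 clustered summits, and 27 of these were upstream of the start. The 10 with the highest folds are printed 5′ to 3′ on the strand of the gene, up to 75 bases on each side of the summit and ending before the start site. Capitals mark matches to the 10 motifs that were searched, which are listed after the sequences. The choice of these 10 was made after their folds were seen. For Jmjd1c and Rcan1 the start is an internal one, and the summit lies inside the gene, over 1000 bp from its ends.
Kri1: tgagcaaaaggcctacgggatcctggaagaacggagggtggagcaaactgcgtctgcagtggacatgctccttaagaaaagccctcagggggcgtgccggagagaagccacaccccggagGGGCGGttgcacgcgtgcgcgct
Arhgap28: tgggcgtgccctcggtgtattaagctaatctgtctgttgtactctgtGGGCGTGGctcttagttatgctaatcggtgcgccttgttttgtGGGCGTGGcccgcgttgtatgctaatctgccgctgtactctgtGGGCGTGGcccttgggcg
Vps36: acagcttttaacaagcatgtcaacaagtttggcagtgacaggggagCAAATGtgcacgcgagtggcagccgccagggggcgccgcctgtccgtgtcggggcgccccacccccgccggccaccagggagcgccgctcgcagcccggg
Bcs1l: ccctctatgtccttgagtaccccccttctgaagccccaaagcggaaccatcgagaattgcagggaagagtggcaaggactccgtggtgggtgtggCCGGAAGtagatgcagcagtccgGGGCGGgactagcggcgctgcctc
Jmjd1c: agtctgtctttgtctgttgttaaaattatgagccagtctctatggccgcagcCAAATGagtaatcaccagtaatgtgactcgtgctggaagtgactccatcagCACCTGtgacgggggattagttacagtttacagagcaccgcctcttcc

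Kri1 encodes a ribosome biogenesis factor, and its summit 68 bp upstream of the start had a pileup of 27 ChIP fragments and 14.2-fold enrichment (9.51 to 20.4). The stretch is chr9:21287970-21288112 on the minus strand. Arhgap28, a gene for a GTPase activating protein, had its summit 106 bp upstream, with a pileup of 26 and 13.7-fold enrichment (9.10 to 19.8). Its stretch is chr17:68004139-68004289 on the minus strand. Vps36, which encodes a subunit of the ESCRT-II sorting complex, reached 12.6-fold (8.28 to 18.6) from a pileup of 24 at 71 bp upstream, in chr8:22192687-22192832 on the plus strand. Bcs1l, an assembly factor gene for respiratory chain complex III, reached 10.3-fold (6.48 to 15.6) in chr1:74588147-74588288 on the plus strand. Jmjd1c encodes a member of the JmjC histone demethylase family and reached 10.2-fold (6.47 to 15.3) in chr10:67185562-67185712 on the plus strand. These summits stood at high folds, but their intervals overlapped.

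The other members of the set had folds of 8.60 to 10.2.
Rcan1: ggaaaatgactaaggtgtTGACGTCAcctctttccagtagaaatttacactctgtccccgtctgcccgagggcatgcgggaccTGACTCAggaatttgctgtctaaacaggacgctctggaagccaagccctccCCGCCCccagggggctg
Pkm: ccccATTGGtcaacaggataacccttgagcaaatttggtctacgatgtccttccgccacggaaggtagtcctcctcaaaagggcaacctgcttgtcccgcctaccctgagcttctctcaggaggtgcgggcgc
Zbtb22: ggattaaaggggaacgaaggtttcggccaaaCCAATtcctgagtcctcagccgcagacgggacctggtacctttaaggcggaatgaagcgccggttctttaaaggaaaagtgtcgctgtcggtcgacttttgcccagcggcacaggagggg
Fbxo42: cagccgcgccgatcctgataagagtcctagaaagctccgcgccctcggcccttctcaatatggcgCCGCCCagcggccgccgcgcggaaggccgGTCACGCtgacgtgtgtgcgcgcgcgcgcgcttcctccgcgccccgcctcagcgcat
Cdkn2d: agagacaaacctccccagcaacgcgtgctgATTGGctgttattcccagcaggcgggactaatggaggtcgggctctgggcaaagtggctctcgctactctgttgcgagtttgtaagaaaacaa

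Rcan1, a gene for a regulator of the phosphatase calcineurin, had a pileup of 21 and 10.2-fold enrichment (6.47 to 15.3), in chr16:92400121-92400271 on the minus strand. Pkm, the gene of muscle-type pyruvate kinase, reached 9.80-fold (6.10 to 15.04) from a pileup of 19, in chr9:59656326-59656458 on the plus strand. The zinc finger gene Zbtb22 (chr17:33915976-33916126, plus strand), the F-box gene Fbxo42 (chr4:141147764-141147914, plus strand) and Cdkn2d (chr9:21291337-21291459, minus strand), which encodes an inhibitor of the cell cycle kinases CDK4 and CDK6, each had a pileup of 16 and 8.60-fold enrichment (5.13 to 13.6). Cdkn2d and Kri1 formed a single cluster, with their summits 3375 bp apart. For Zbtb22 and Fbxo42 the partner summit was the stronger one, with 10.1-fold at 4883 bp and 10.1-fold at 5001 bp.

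Of the 10 motifs searched on both strands, 5 were picked from knowledge of PAX7 and muscle. They were the palindromic homeodomain sites with 3 and with 2 free bases between TAAT and its reverse complement, the paired domain core GTCACGC, the E-box CANNTG bound by MyoD and related factors, and the AP-1 site TGANTCA. Common promoter motifs searched too were the ETS site CCGGAAG, the CCAAT box, the GC box GGGCGG and the cAMP response element TGACGTCA, and GGGCGTGG was added after it was noticed in the Arhgap28 sequence. No matches of different motifs overlapped in the printed stretches. The Arhgap28 stretch holds 3 matches to GGGCGTGG, and its whole window holds 4, a number reached by 10 of 20085 windows of protein-coding genes. GCTAAT, which was not among the motifs searched and stands in lower case, occurs in it 3 times. The Rcan1 stretch has a cAMP response element and an AP-1 site, and the Fbxo42 stretch has the paired domain core. Jmjd1c has 2 E-boxes in its stretch, and Vps36 has 1.

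Over whole windows of 300 bases, the AP-1 site was present in 6 of 31 windows with a clustered summit (19.4%, interval 9.19 to 36.3%), against 4.28% of 537 windows with an isolated summit (2.87 to 6.34%) and 7.06% of all 20085 windows. The 6 windows belonged to Rcan1, Nucks1, Gtdc1, Lpin3, Osgin1 and Smarca2, and the nearest match lay from 11 bp (Rcan1) to 139 bp (Osgin1) from the summit. The paired domain core was present in 2 clustered windows (6.45%, 1.79 to 20.7%), those of Fbxo42 and Mfap3l, against 16.0% of isolated windows (13.2 to 19.4%) and 2.76% of all windows. The homeodomain site with 3 free bases was in 0 of the 31 clustered windows, for which the Wilson interval reaches 11.03%, in 0.559% of isolated windows and in 0.383% of all windows. The site with 2 free bases was in 0 of 31 clustered windows, 0 of 537 isolated windows and 0.324% of all windows. E-boxes were in 51.6% of clustered windows (34.8 to 68.0%), 59.8% of isolated windows and 68.7% of all windows.

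Promoter motifs of broad use were frequent in both groups. The GC box was in 77.4% of clustered windows (60.2 to 88.6%), 73.4% of isolated windows and 47.0% of all windows. The CCAAT box was in 38.7% (23.7 to 56.2%), 50.1% and 38.1% of the same sets, the ETS site in 16.1% (7.09 to 32.6%), 20.1% and 11.9%, and the cAMP response element in 3.23% (0.572 to 16.2%), 4.66% and 2.30%. GGGCGTGG was in 9.68% (3.35 to 24.9%), 20.5% and 7.20%. Of its 3 clustered windows, 1 was that of Arhgap28, where the motif was noticed, and the others belonged to Wwtr1 and held the same summit. The interval counts them as separate windows. The median GC content was 62% in clustered windows, 62% in isolated windows and 57% over all windows. A match describes letters in a window and not a binding site, and with 31 clustered windows the shares are imprecise.

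Most clusters were pairs. There were 183 clusters of 2 summits (366 peaks), 18 of 3 summits (54 peaks) and 3 of 4 summits (12 peaks), and together they held 14.6% of the 2958 peaks on chromosomes 1 to 19 (13.4 to 15.9%). This interval, like those on other shares of clustered peaks, takes peaks as independent. Peaks enter clusters 2 to 4 at a time, so it is likely too narrow. The span from first to last summit had a median of 2268 bp (quartiles 735 and 5489 bp) and ran from 143 to 22949 bp. Clusters of 3 or more summits had a median span of 6233 bp, and pairs 1607 bp. Each further summit adds a step to the span, so the chaining itself favours this difference. The median distance to the nearest other summit was 1717 bp for clustered peaks and 140226 bp for isolated ones, a contrast that the selection itself made.

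**Figure D1:**
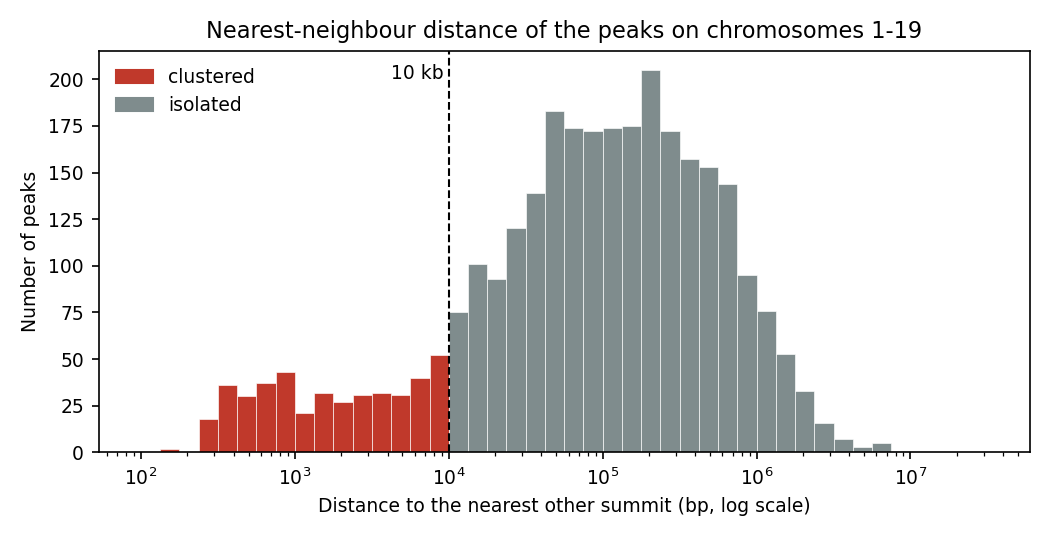
Number of peaks on chromosomes 1 to 19 (y axis) by distance to the nearest other summit in bp (x axis, log scale), with clustered peaks in red, isolated peaks in grey and the limit of 10 kb dashed. The distances run on without a break across the limit, and the 432 clustered peaks spread over the whole range below it.

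Of the 228 steps between neighbouring summits, 39 were at most 500 bp, 77 over 500 to 2000 bp, 52 over 2000 to 5000 bp and 60 over 5000 to 10000 bp. Edges of neighbouring peaks were less than 500 bp apart at 61 steps and less than 100 bp apart at 18, with 52 bp as the lowest value. A single step had its summits closer than the fragment length that the caller estimated. At such short distances separate bound sites and an enriched region that was reported in pieces cannot be told apart from the list. Counting peaks with edges under 500 bp apart as 1 region left 318 clustered regions.

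The limit cuts through a continuous range of distances. Just inside it were steps of 9745 bp within the follistatin-like gene Fstl4 (9.61- and 6.58-fold), 9909 bp within Mdfic (5.31- and 6.83-fold) and 9973 bp near Errfi1 (15.2- and 5.47-fold). Just outside were steps of 10119 bp in the phosphodiesterase gene Pde4d (8.64- and 8.60-fold), 10163 bp near the Hedgehog co-receptor gene Cdon (19.2- and 7.42-fold) and 10378 bp at the keratin gene Krt78 (5.56- and 8.82-fold). The share of peaks that were clustered ranged over the chromosomes from 9.20% of 163 on chromosome 3 to 19.5% of 190 on chromosome 10.

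Peak strength differed little between clustered and isolated peaks. Clustered peaks had a median fold enrichment of 7.41 (quartiles 6.35 and 9.04), and isolated peaks 7.35 (6.27 and 8.79). The median pileup was 15 fragments in both groups, with upper quartiles of 19 in clustered and 18 in isolated peaks. Median widths were 238.5 bp for clustered and 228 bp for isolated peaks. The median local input background, before scaling to the ChIP depth, was 2 fragments in both groups. At 40.7% of clustered and 44.6% of isolated peaks the background was the caller's genome-wide floor (0.977 scaled, or 1.88 before scaling), which the local input did not exceed. Folds of 10 or more were seen at 73 of 432 clustered peaks (16.9%, 13.7 to 20.7%) and at 355 of 2526 isolated peaks (14.1%, 12.8 to 15.5%), beside 14.4% of all listed peaks. The clustered share was therefore near the background. In the subset with the smaller q values (−log10 q no lower than the median of all peaks), with each peak left in its group, the shares were 31.2% of clustered and 28.1% of isolated peaks. When clusters were formed anew among that subset, so that a peak whose weaker neighbour dropped out counted as isolated, they were 23.7% and 29.1%.

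A smaller share of clustered than of isolated summits lay right at a gene end, and a larger share lay a short way off. Summits within 1000 bp of an end of a protein-coding gene made up 16.2% of clustered peaks (70 of 432, 13.03 to 19.97%) and 31.4% of isolated peaks (793 of 2526, 29.6 to 33.2%). Between 1 and 10 kb from an end the shares were 24.8% of clustered (107 peaks, 20.9 to 29.0%) and 16.2% of isolated peaks (409 peaks, 14.8 to 17.7%). The limit of 10000 bp itself keeps the partner of a gene-end summit near that end, and 32 clusters had 1 gene-end summit. How far this selection made the larger share at 1 to 10 kb was not tested. Outside genes at 10 to 50 kb from an end they were 15.5% (12.4 to 19.2%) and 11.6% (10.4 to 12.9%), and beyond 50 kb 18.1% (14.7 to 21.96%) and 14.8% (13.5 to 16.3%). Deep inside genes the shares were close, with 14.4% and 13.7% at 10 to 50 kb from the ends and 11.1% and 12.3% beyond. In total 49.3% of clustered and 49.5% of isolated summits lay inside a protein-coding gene. When each cluster was counted once, by its strongest summit, the gene-end share was 17.2%. The difference in the gene-end share was not tested, because peaks of 1 library are not replicates and summits of a cluster share their surroundings.

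**Figure D2:**
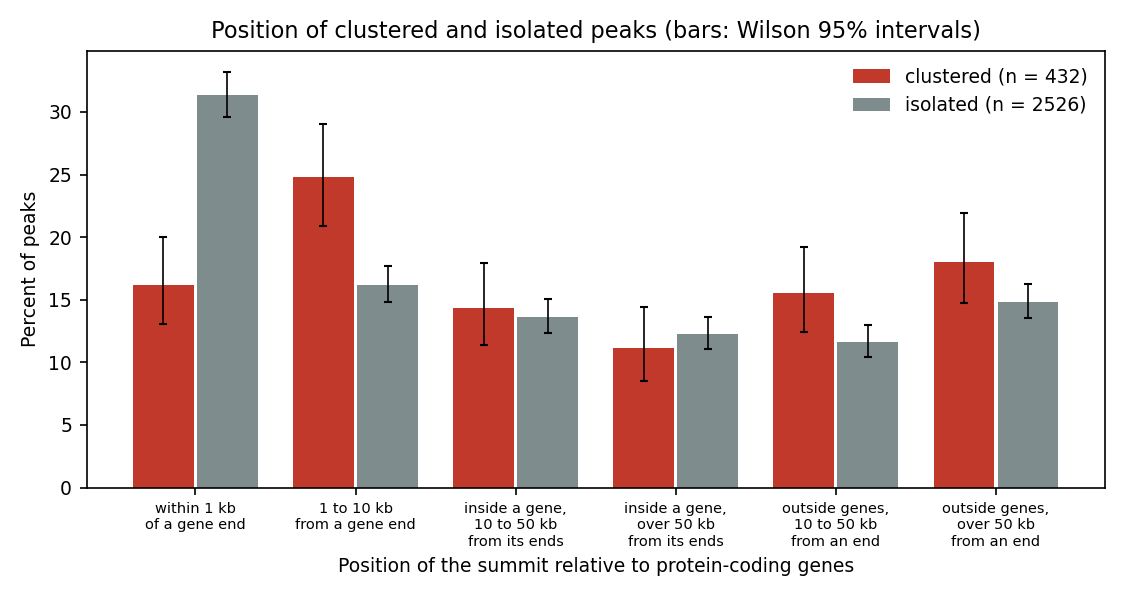
Percent of peaks (y axis) in 6 classes of position relative to protein-coding genes (x axis), with clustered peaks in red left of isolated peaks in grey; thin lines are Wilson intervals at 95%. The gene-end class holds 16.2% of clustered and 31.4% of isolated peaks, and the class at 1 to 10 kb holds 24.8% and 16.2%.

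The same contrast was seen at start sites, which RefSeq strands make known for 16457 of 20665 protein-coding genes, on 18 of the 19 chromosomes. Within 250 bp of a start lay 37 of 419 clustered summits (8.83%, 6.47 to 11.9%) and 542 of 2444 isolated summits (22.2%, 20.6 to 23.9%). Within 1000 bp the counts were 66 (15.8%) and 719 (29.4%). Where a summit did lie within 250 bp, it was upstream of the start in 27 of 37 clustered cases (73.0%, 57.0 to 84.6%) and in 71.8% of isolated cases (67.8 to 75.4%). The median signed distance in this window was -71 bp for clustered and -57.5 bp for isolated summits, negative values being upstream. The share at starts was smaller for clustered peaks, and most summits found there were upstream in both groups.

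**Figure D3:**
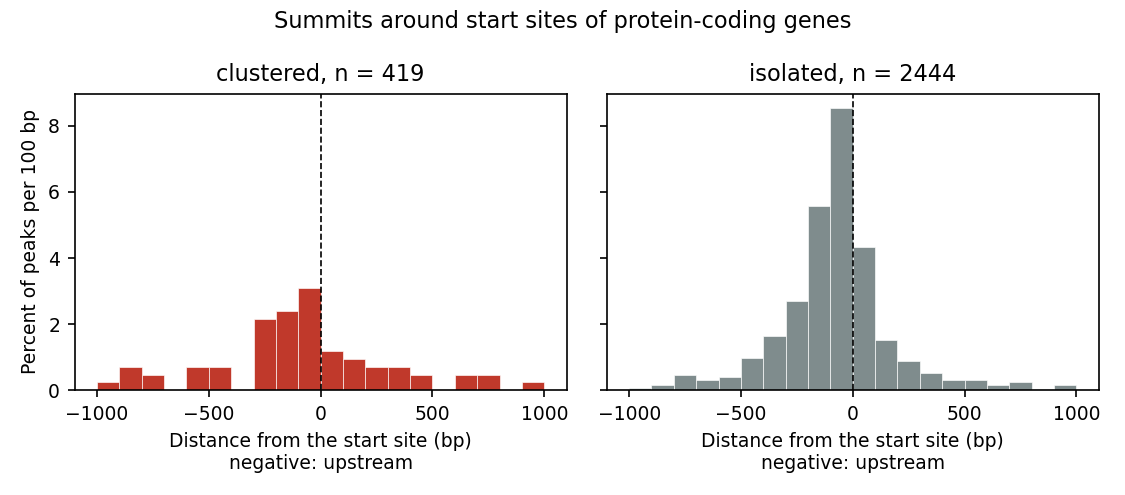
Percent of peaks per 100 bp (y axis) by signed distance from the nearest start site of a protein-coding gene in bp (x axis, negative values upstream), with clustered peaks left (n = 419) and isolated peaks right (n = 2444). Both groups peak just upstream of the start, and the clustered group is lower there.

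Whole clusters fell about evenly inside and outside genes. In 84 of the 204 clusters all summits lay inside a gene, and in 81 of these they shared the same gene. In 83 clusters no summit was inside a gene, and in 37 some were. The 83 intergenic clusters had a median distance of 34357 bp to the nearer flanking gene, and 35 were more than 50 kb from both. Gene ends were without any summit inside 1000 bp for 153 clusters, while 32 had 1 such summit and 19 had 2.

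The widest cluster was in Mdfic, which encodes a relative of the MyoD family inhibitor. Its 4 summits inside the gene spanned 22949 bp on chromosome 6, from 15727691 to 15750640. They had pileups of 10, 15, 12 and 19 ChIP fragments against backgrounds of 2.06, 2.58, 1.88 (the floor) and 2 fragments before scaling. The folds were 5.31 (2.80 to 9.35), 6.83 (4.01 to 11.0), 6.58 (3.64 to 11.1) and 9.80 (6.10 to 15.04), so their intervals overlapped. This cluster joined across 3 steps of 5915 to 9909 bp, and without the longest step it would have been a cluster of 3. The other two clusters of 4 summits had high input, and whether they lie in regions known for artefacts was not tested. On chromosome 2 (98662769 to 98666863) pileups of 162 to 302 stood against input backgrounds of 171 to 291, with folds of 1.58 to 2.06. On chromosome 14 (19416341 to 19419118) pileups of 111 to 337 stood against 111 to 344, with folds of 1.70 to 1.91. Both lay over 100 kb from a protein-coding gene, and they held the 8 clustered peaks with an input background of 10 or more. Without such peaks the median clustered fold was 7.56 and the lowest 3.66.

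Among the clusters of 3 summits, the highest fold belonged to one between Mroh9 and Prrx1. Prrx1 is a homeobox transcription factor gene of limb mesenchyme, and the cluster lay 20843 bp beyond its 3′ end, on chromosome 1 from 163221876 to 163224276. Its folds along the chromosome were 12.6 (8.28 to 18.6), 7.40 (4.34 to 11.9) and 8.60 (5.13 to 13.6), from pileups of 24, 15 and 16. Sdc4 encodes the heparan sulfate proteoglycan syndecan 4, a surface marker of muscle stem cells. Its cluster lay inside the gene on chromosome 2, from 164432814 to 164439047, with summits 10374, 10016 and 4141 bp downstream of the start. The pileups there were 25, 16 and 15 and the folds 11.5 (7.63 to 16.8), 8.20 (4.89 to 13.02) and 8.09 (4.75 to 13.02). The first summit of each of these clusters was the strongest, but the intervals of its fold overlapped those of the others.

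A cluster across the end of Ttc27, a tetratricopeptide repeat gene, had folds of 11.6, 6.17 and 7.35 over 9630 bp, and its next gene was Ltbp1, which encodes a latent TGF-beta binding protein, 138427 bp away. Between Nrep and Epb41l4a on chromosome 18, 3 summits within 1072 bp had folds of 5.55, 11.3 and 7.89, at 158223 bp from Nrep and 172667 bp from Epb41l4a. The cluster between Gm5148 and Ankrd50 spanned 14838 bp with folds of 8.09, 8.33 and 11.1. Between Hint1, a nucleotide hydrolase gene, and Gpx3, the gene of a secreted glutathione peroxidase, the folds were 6.64, 10.5 and 7.84 within 3808 bp. Adamts5, which encodes a protease that cleaves matrix proteoglycans, held 3 summits of 10.1-, 7.35- and 6.47-fold over 8074 bp. In each of these 5 clusters the fold intervals of the strongest and the weakest summit overlapped.

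The other clusters of 3 had highest folds from 7.14 to 9.65 and were chosen for mention after their values were seen. Arid1a encodes a subunit of the BAF chromatin remodelling complex, and its summits of 7.08-, 7.08- and 7.59-fold all lay upstream of their nearest start site, at -459, -73 and -842 bp. Ackr3, which encodes a scavenging receptor for the chemokine CXCL12, was 19217 bp from a cluster with folds of 5.88 to 9.10. Clusters also lay 35528 bp from the NF-kappaB gene Nfkb1 (5.08 to 9.31) and 37463 bp from the kinase gene Sgk1 (6.47 to 8.46).

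**Figure D4:**
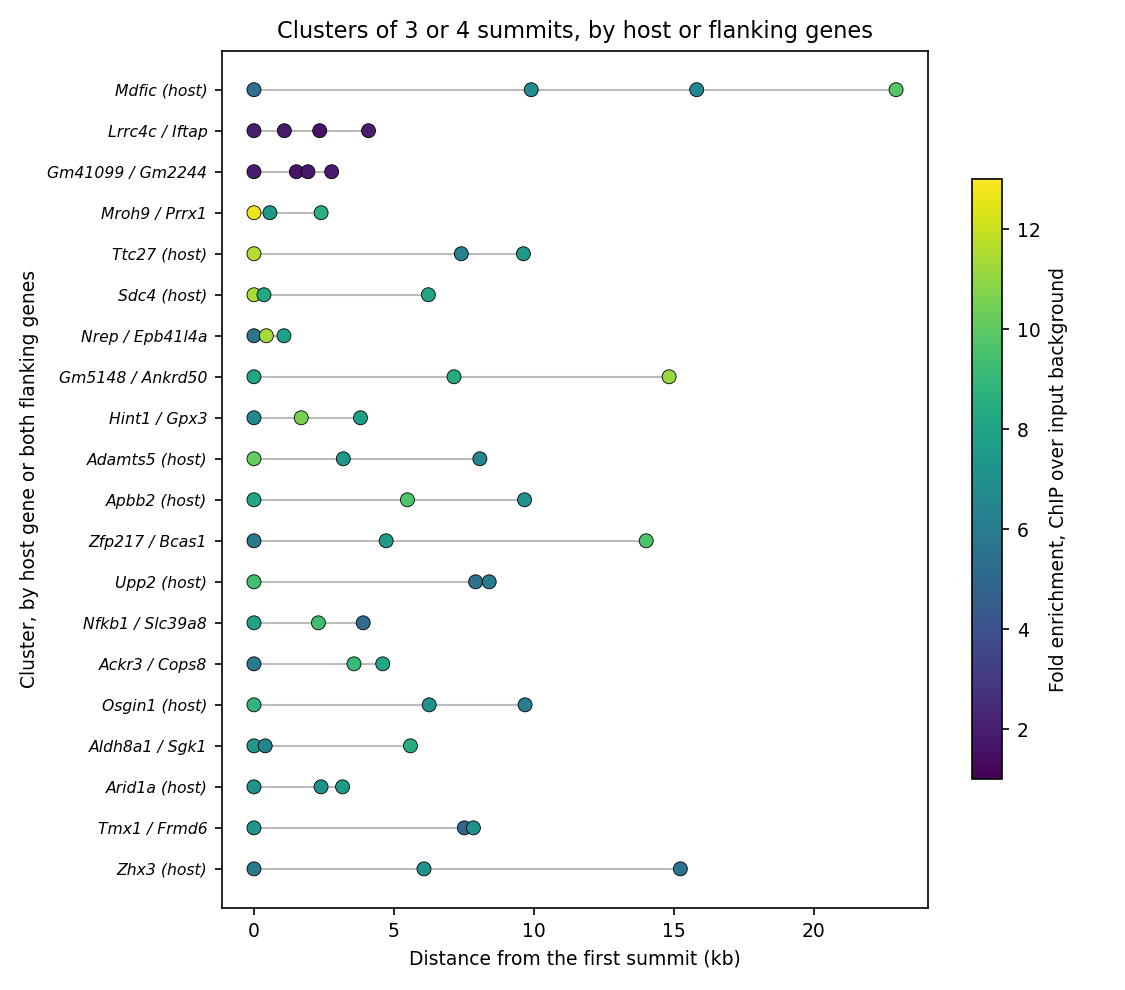
Shown are 20 of the 21 clusters of 3 or 4 summits, 1 per row, with each summit placed by its distance from the first summit in kb (x axis) and coloured by fold enrichment; rows carry the host gene or both flanking genes. The Mdfic cluster is the widest at 22949 bp, and the 2 dark rows are the clusters with folds of 2.06 or less.

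In the pairs of highest fold a single summit was usually the strong one. These pairs were chosen by the fold of their stronger summit, and that choice itself favours such a contrast. The strongest pair, in the aminopeptidase gene Aopep on chromosome 13, had pileups of 53 and 20 at summits 636 bp apart, with the background at the floor for both. The folds were 27.3 (20.6 to 35.6) and 10.6 (6.69 to 16.1), and the intervals did not overlap. Dpy19l3, a C-mannosyltransferase gene, followed with pileups of 48 and 16 at 435 bp and folds of 24.0 (17.8 to 31.7) and 8.33 (4.97 to 13.2). Mogat1, a monoacylglycerol acyltransferase gene, had 38 and 15 fragments at summits 5996 bp apart, with folds of 19.7 (14.1 to 26.9) and 5.20 (3.05 to 8.36), the highest ratio of any pair (3.80). Auts2, a neurodevelopmental regulator gene, held folds of 5.88 (3.18 to 10.1) and 16.2 (11.2 to 22.8) at 2338 bp. In all of these pairs the stronger summit stood clear of the weaker one.

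The remaining pairs of highest fold were at Tmem65 (7.27- and 15.2-fold, 6676 bp apart), at 151628 bp from the focal adhesion gene Tns1 (9.31- and 15.2-fold), near Errfi1 (15.2- and 5.47-fold) and in the zinc finger gene Zfp568 (14.7- and 8.20-fold). Errfi1 encodes a feedback inhibitor of the EGF receptor, and the pair lay 26235 and 16262 bp upstream of its start. The pair at Zhx2 had folds of 3.66 (2.19 to 5.82) and 10.1 (6.29 to 15.5), with a background of 7 fragments before scaling at the weaker summit and the floor at the stronger.

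Across the 228 steps the stronger fold was a median of 1.26 times the weaker (quartiles 1.13 and 1.57). By length of step the median ratio was 1.2004 up to 500 bp, 1.29 over 500 to 2000 bp, 1.30 over 2000 to 5000 bp and 1.30 beyond. At 221 of the 228 steps the intervals of the 2 folds overlapped, which does not show that the folds were equal. The 7 steps without overlap were the Aopep, Dpy19l3, Mogat1, Auts2, Errfi1, Tgfbr3 and Zhx2 pairs. A summit of 10-fold or more was present in 70 clusters, and every summit was at that level in 3, the pairs in Aopep, in the indoleamine dioxygenase gene Ido2 (11.3- and 11.1-fold) and in the lysophosphatidic acid receptor gene Lpar1 (10.2- and 10.1-fold).

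**Figure D5:**
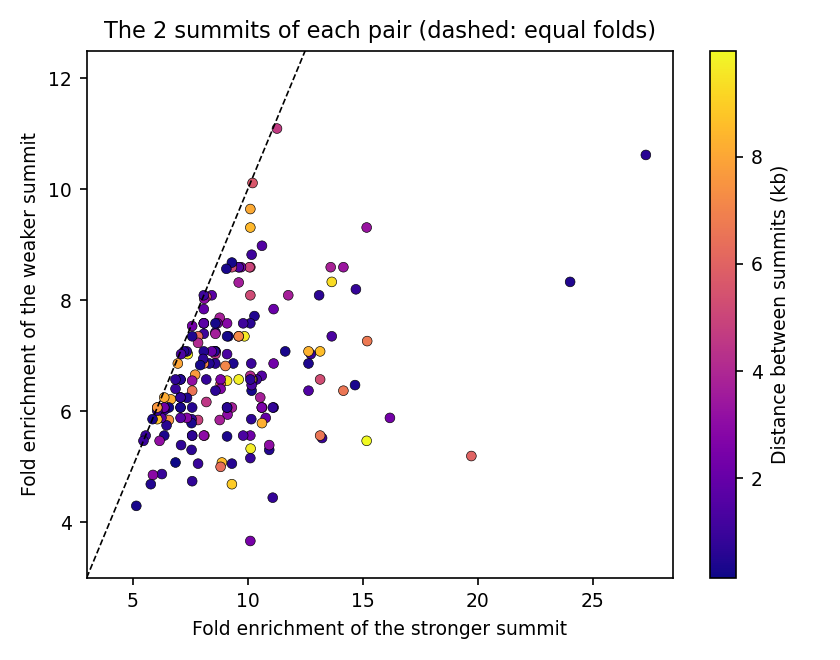
Fold enrichment of the weaker summit (y axis) against that of the stronger summit (x axis) for the 183 pairs, coloured by the distance between summits in kb; the dashed line marks equal folds. The weaker summits reach at most 11.1-fold (Ido2) while the stronger ones reach 27.3-fold in Aopep, and short and long distances are mixed.

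The 4 closest pairs held no summit of 10-fold or more, but other steps up to 500 bp did. Examples were the pairs in Jmjd1c (10.2-fold, summits 287 bp apart) and Dpy19l3 (24.0-fold, 435 bp apart). In Atrnl1 the summits were 143 bp apart, with pileups of 13 and 12 and folds of 6.86 and 5.08. Summits 247 bp apart lay between the olfactory receptor gene Olfr1368 and Trim27 (7.35- and 9.10-fold). At the growth factor receptor gene Erbb3 they were 256 bp apart (6.07- and 6.58-fold), and in the transcription factor gene Nfib 276 bp apart (8.68- and 9.31-fold). Their pileups of 11 to 18 fragments gave wide intervals that overlapped within each pair.

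Of the 19 clusters with 2 gene-end summits, 6 had them nearest to different genes. Kri1 and Cdkn2d, whose upstream sequences are printed above, were the case with the highest fold. Vps36 had a second summit of 6.86-fold at 407 bp, on the other side of its start. The partner of the Bcs1l summit, 7.72-fold at 474 bp, lay inside the neighbouring gene Zfp142, 280 bp downstream of the Zfp142 start. The Pkm pair had its other summit 889 bp downstream of that start (7.59-fold), and the Rcan1 pair 1144 bp downstream (6.47-fold). Both summits within 1000 bp of an end were found at 20.5% of the steps up to 500 bp, 12.99% of those over 500 to 2000 bp and 1.92% of those over 2000 to 5000 bp. Summits within 1000 bp of the same end are at most 2000 bp apart, so the definition itself makes part of this fall.

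Muscle stem cell genes were the list with the highest share of members beside a cluster. Of its 34 genes on these chromosomes, 9 hosted or flanked a cluster at any distance (26.5%), where 498 of all 20665 protein-coding genes did (2.41%). They were Sdc4, Ncam1, Calcr, Itgb1, Cav1, Gas1, Met, Musk and Vcam1, and 5 of the 34 (14.7%) did so within 50 kb of a summit, where 1.27% of all protein-coding genes did. The lists of this section were chosen with earlier results of these data known, so that their counts are a description. Long genes and genes beside wide gaps have more room to host or flank a cluster. The shares over all protein-coding genes were not matched to the lists for gene length or spacing. Ncam1, a cell adhesion molecule gene, had summits 14891 and 17391 bp outside its nearer end with folds of 6.07 (3.28 to 10.5) and 10.6 (6.75 to 16.0). Calcr, which encodes the calcitonin receptor that holds these cells in quiescence, had folds of 8.60 (5.13 to 13.6) and 7.08 (4.01 to 11.8) at summits 744 bp apart inside the gene, 22254 and 21510 bp downstream of a start. Itgb1, the gene of the beta-1 integrin chain, held 6.17- and 8.20-fold at 4537 bp.

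Matrix and adhesion genes followed with 8 of 38 (21.1%), namely Adamts5, Col4a2, Ncam1, Itgb1, Vcam1, Adamts1, Col4a1 and Col5a2, of which 3 stand in the stem cell list too. Col4a2 encodes a basement membrane collagen chain and held a pair of 9.71- and 8.60-fold, 2540 bp apart. In the TGF-beta and BMP list 4 of 33 genes were beside a cluster (12.1%). The co-receptor gene Tgfbr3 held folds of 5.52 (3.29 to 8.76) and 13.2 (8.82 to 19.2) at 950 bp, and Acvr1, Acvr2a and Ltbp1 were flanking genes beyond 50 kb. Growth factor signalling had 3 of 30, Spry2, Erbb3 and Met. Spry2, a feedback inhibitor gene of receptor tyrosine kinases, had a pair 547 and 1172 bp upstream of its start, with pileups of 19 and 14 and folds of 10.1 (6.29 to 15.5) and 7.59 (4.38 to 12.4).

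The Spry2 promoter is shown because both summits lie just beyond it. Its 250 bases before the start are chr14:105896820-105897069 on the minus strand, and the nearer peak begins 104 bp further upstream. The capitals mark an E-box.
Spry2: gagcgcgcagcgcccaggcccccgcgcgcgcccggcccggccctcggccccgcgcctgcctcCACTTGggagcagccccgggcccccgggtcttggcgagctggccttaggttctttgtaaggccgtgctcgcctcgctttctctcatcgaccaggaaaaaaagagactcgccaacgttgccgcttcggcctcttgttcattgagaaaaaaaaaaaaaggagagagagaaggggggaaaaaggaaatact

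Immediate early genes had 3 of 30 beside a cluster, Dusp6, Myc and Zfp36l1, and none within 50 kb. The pair nearest to Dusp6, which encodes a phosphatase of ERK kinases, was 115828 bp from the gene with folds of 11.1 and 6.07. The Notch list had 1 of 28, the Deltex gene Dtx4 with 10.9- and 5.39-fold inside the gene, and the Wnt list 2 of 34, Dkk1 and Ror2, both beyond 50 kb. Homeobox and paired box factors had 2 of 36, Prrx1 and Zeb2, and Zeb2 held a pair of 7.59- and 8.60-fold at 294 bp. Markers of other cell types that a muscle sort could hold had 2 of 23, the endothelial factor gene Erg (8.20- and 8.07-fold) and Erbb3, a Schwann cell marker in that list. Prrx1, which is also a marker of fibro-adipogenic cells, was counted with the homeobox factors and not in that list. Hepatocyte genes, a control list, had 0 of 25, and myogenic differentiation genes 1 of 30, Myf6 as a flanking gene beyond 50 kb. With 2.41% of all protein-coding genes beside a cluster, a list of 25 would often hold none, so the count of 0 says little. The 32 clusters at genes of any list had a median highest fold of 8.93 (8.07 to 10.1), against 9.05 (8.60 to 9.31) over all 204, both intervals from order statistics.

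The main regulators of the muscle lineage had no clustered summit within 100 kb. The list counts of hosting or flanking genes had no such limit, so Myf6 was counted there. Pax7 had 2 isolated summits within 100 kb, the nearest inside the gene, but its nearest clustered summit was 1309 kb away. Myod1 had 3 isolated summits within that distance. The distance to the nearest clustered summit was 335 kb for Pax3, 176 kb for Myf5, 1359 kb for Myod1, 2379 kb for Myog and 168 kb for Myf6. For Myf5 and Myf6 that clustered summit was also the nearest of all summits.

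Some gene intervals held more than 1 cluster. The stretch between Fbxl17 and the kinase gene Fer had 2 pairs within 33482 bp, with a highest fold of 13.2. Between Tmx1 and Frmd6 a pair and a cluster of 3 lay within 58222 bp (highest fold 9.61). Further intervals with 2 pairs were those between Spring1 and Med13l (55361 bp, 14.2-fold), between the recombination gene Rad51b and Zfp36l1 (86391 bp, 10.6-fold) and between Adamts5 and N6amt1 (387331 bp, 8.07-fold). The xylosyltransferase gene Gxylt2 was the host of 2 pairs 68594 bp apart from first to last summit, with a highest fold of 8.57.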

How the data were processed

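The labels' antibody field and titles separate the ChIP from the input library. Peaks were called with MACS 2.1.1.20160309 on 1 ChIP library against 1 input library, keeping q-values up to 0.01, per the file headers. GRCm38, bcl2fastq 2.16, HISAT2 and MACS2 2.1.1 are named per the submitters' processing notes, without roles. Per the file headers, at most 1 tag was kept per position, and the larger input was scaled down to the ChIP (the tag totals give a factor of 0.5199). Pileup in the deposited table is coverage, in ChIP fragments without scaling. The deposited fold enrichment is the ratio of pileup plus 1 to scaled local background plus 1. The authors' caller also gave a −log10 p-value and a −log10 q-value for each peak. Positions are 1-based.

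From these values the background was recovered from fold and pileup, and divided by the factor to put it on the scale of input fragments before scaling. Its lowest value, 0.977, is the genome-wide floor (ChIP tags times fragment length over genome size) and not a local input count. Genes were 20665 RefSeq protein-coding genes of GRCm38.p6 on chromosomes 1 to 19, and start sites came from RefSeq promoter windows. A host gene overlaps the span between the first and last summit, and flanking genes are the nearest on each side. Fold intervals hold the background fixed, and median intervals use order statistics. The chaining was tested on simulated positions. Python 3.11.15, pandas 2.3.3 and scipy 1.17.1 were used.

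The members and lists were chosen with earlier results of these data known. Named were all clusters of 4 summits, the 6 strongest of 3, the 8 strongest pairs, the 4 closest pairs, the 4 with the highest fold ratio, up to 4 genes per list that host a cluster or are nearest to one, and 6 myogenic regulators. Other clusters and list genes were named after their values were seen. Alternatives were neighbour distances of 5000 and 20000 bp, a stricter q, merging of close peaks, leaving out high pileups or backgrounds, wider gene-end windows and nearer genes. The 19 peaks outside chromosomes 1 to 19 were left out of the clusters. The genes and values of 1 cluster of 3 summits are not reported here.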

Additional observations from a re-analysis of the deposited data

Results flagged for a closer look

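A pair of summits on the X chromosome, outside the comparisons by chromosome 1 to 19, was singled out because the peaks there were not used elsewhere. Being above local input is common to all listed peaks, since the caller kept no others. The pair was the single cluster on X, so 2 of 17 peaks there were clustered, beside 14.6% on chromosomes 1 to 19. Both summits lay inside Sh3kbp1, an adaptor gene of receptor endocytosis, 311 bp apart. The pileups were 11 and 12 fragments and the folds 6.07 (3.28 to 10.5) and 6.37 (3.53 to 10.8), both under the median of autosomal clustered peaks.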

How the results depend on the processing

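Of 65 values recomputed under 10 alternative settings, 46 stayed within the interval of the reported value, or within 1.5 times a reported count, and 19 moved. No paired analysis was possible because there is 1 library of each kind. With neighbours up to 20000 bp, 652 peaks were clustered and 46 clusters had 3 or more summits, and with 5000 bp 10 clusters did, where 10000 bp gave 432 and 21. With the stricter q limit (−log10 q no lower than its median over all listed peaks), 135 peaks were left in 66 clusters, 3 of them of 3 or more summits, beside 15 list genes. With clusters formed anew among these peaks the median fold was 8.60 for clustered and 8.82 for isolated peaks, 23.7% of clustered and 29.1% of isolated peaks reached 10-fold, and the gene-end share was 14.1% and 29.1%. With the groups of the full list kept, the median fold was 8.82 for clustered and 8.79 for isolated peaks, and 31.2% and 28.1% reached 10-fold, so that the order depends on whether clusters are formed anew. A gene-end window of 2500 bp gave 23.6% of clustered and 36.3% of isolated peaks. Counting list genes within 50 kb only gave 14 of 319 (4.39%), beside 1.27% of all protein-coding genes. These changes follow settings that keep fewer peaks, join more distant ones or count other distances, and no further cause was tested. The gene-end share was lower for clustered than for isolated peaks in all 7 settings run on it, planned and added. The count by the strongest summit of each cluster and the setting that keeps the groups were added after seeing the data. A median pileup of 15 fragments and no replicate limit the precision of differences in strength between neighbouring summits.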
